A study of Mus musculus with 12 samples.

Results

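The genes described here encode the extracellular matrix of the embryonic cortex, the integrins that bind it, and the enzymes and inhibitors that remodel it. They were chosen by symbol among the 11358 genes that had a probe set with a single gene symbol in the deposited table: collagens other than Col19a1, laminins, integrin alpha and beta subunits, fibulins, hyaluronan link proteins, tenascins (Tnc and Tnr), the lecticans Bcan and Ncan, Fn1, Sparc and Sparcl1, matrix metalloproteinases, ADAMTS proteases and TIMP inhibitors. This gave 64 genes in 12 families, measured by 113 probe sets. A gene without such a probe set in the table could not be examined, so its absence here does not mean that it was not expressed. Where several probe sets read a gene, the one brightest on average was taken. The prefixes also took in some genes that are not what the family name says. Itgb1bp1, Itgb1bp2, Itgb3bp and Itgbl1 are not integrin subunits, and Adamtsl1 and Adamtsl3 encode ADAMTS-like proteins that lack the protease domain.

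The study compared migrating cortical interneurons of the medial ganglionic eminence (MGE) and the caudal ganglionic eminence (CGE). MGE cells at E18.5 and at E14.5 were sorted from the cortex of Nkx2-1-Cre;R26R-YFP embryos, in which Cre driven by Nkx2-1 turns on a Rosa26 YFP reporter in the lineage, whatever cell type its descendants become. CGE cells at E18.5 and at E16.5 were sorted from Nkx2-1-Cre;Dlx1-lox-Venus-lox embryos, in which Cre removes a Dlx1-driven Venus, so that the remaining fluorescent cells are Dlx1 cells with no Nkx2-1-Cre history, those of the lateral eminence included. All groups therefore carried Nkx2-1-Cre, but the reporter differed with the lineage, so reporter and lineage cannot be told apart. Each group had 3 arrays titled as biological replicas, made from sorted cells of pooled embryos. Since the sources used here do not say how many embryos or litters an array stands for, p-values measure only the spread between these arrays.

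The extracellular matrix of the brain differs from that of other organs. Laminins and type IV collagen are confined mostly to the basement membranes of the pial surface and the vessels, while hyaluronan, lecticans and tenascins fill the space between cells and later condense into perineuronal nets around some interneurons. Integrins are dimers of an alpha and a beta subunit that join this matrix to the cytoskeleton. Metalloproteinases and ADAMTS proteases cleave matrix and cell surface proteins, and TIMPs inhibit them.

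Values are the deposited log2 intensities, on which a difference of 1 is a doubling. Over all probe sets, r between replicates was 0.972 to 0.995. A gene was tested if its probe set lay above a level set for each array on at least 3 of the 12 arrays. The level was the 40th percentile of the array over the 27060 deposited probe sets other than controls, at 7.10 to 7.17. In all 8795 genes passed, and 32 of these 64 did. Of these 32, 11 lay above that level on all 12 arrays. Another 8 passed through 1 group alone, 7 of them (Bcan, Col11a1, Col16a1, Itgav, Timp3, Timp4 and Tnr) through MGE cells at E18.5 and 1 (Mmp2) through MGE cells at E14.5, so the genes that passed were bound to differ more often than genes at large. Fbln2, Itga6 and Mmp14 passed through CGE cells alone, with arrays of both CGE groups. In these too the filter favoured a difference, here between the lineages. The 32 genes that did not pass were dim, with 27 below the level on every array and 5 above it on 1 or 2 arrays. Differences were tested with limma over the 8795 genes and called at a Benjamini-Hochberg adjusted p under 0.05. Errors of differences are standard errors with n = 3 arrays per group. No linear fold is given where a group lay wholly under the filter level.

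At E18.5, many of the genes were higher in MGE than in CGE cells. Of the 32 tested, 19 were higher and 5 lower (75% called), against 13% higher and 9.85% lower, or 22.8% called, among all genes tested. The median difference was 1.42, against -0.02 over all genes, and in 26 of the 32 the arrays of the groups did not overlap, as in 36.8% of all genes. Taking all 64 without the filter, 27 were higher and 5 lower (50%), against 13.1% higher and 9.34% lower (22.4% in all) of the 11358 genes, and the median was 0.48. The early comparison set MGE cells of E14.5 against CGE cells of E16.5, so there the embryonic day cannot be told apart from the lineage. In it 5 of the 32 were higher and 9 lower (43.8%), against 4.16% higher and 5.9% lower (10.1% in all) of the genes tested, and 19 did not overlap (33.1% of all genes). Over all 64 without the filter the early counts were also 5 higher and 9 lower, or 21.9%, against 3.56% higher and 5.1% lower (8.65% in all) of the 11358 genes.

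Many of these genes were higher on the MGE arrays of E18.5 than on those of E14.5. Between E18.5 and E14.5, 19 of the 32 were higher and 1 was lower (62.5%), against 11.4% higher and 9.77% lower (21.2% in all) of the genes tested. The median was 0.81, and 25 of the 32 did not overlap (47.8% of all genes). All 64 without the filter gave 28 higher and 2 lower (46.9%), against 12.1% and 8.17% (20.3% in all) of the 11358 genes. In CGE cells, E18.5 set against E16.5 gave 4 higher and 5 lower (28.1%), against 4.49% higher and 6.37% lower (10.9% in all), and 12 of the 32 did not overlap (25.5% of all genes). All 64 gave 5 higher and 5 lower (15.6%), against 4.07% and 4.9% (8.96% in all). The CGE counts rested on single arrays: without CGE E16.5 replicate 3, 0 were called higher and 3 lower, and without CGE E18.5 replicate 2 it was 1 and 4. The interval in days was shorter in CGE cells. The change of the lineage difference, which is the late minus the early difference, was called for 15 of the 32, all of them upwards (46.9%), against 6.77% upwards and 1.88% downwards (8.64% in all) of the genes tested. Without the filter it was called for 20 of the 64, again all upwards (31.2%), against 6.85% upwards and 1.84% downwards (8.69% in all).

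**Figure D1:**
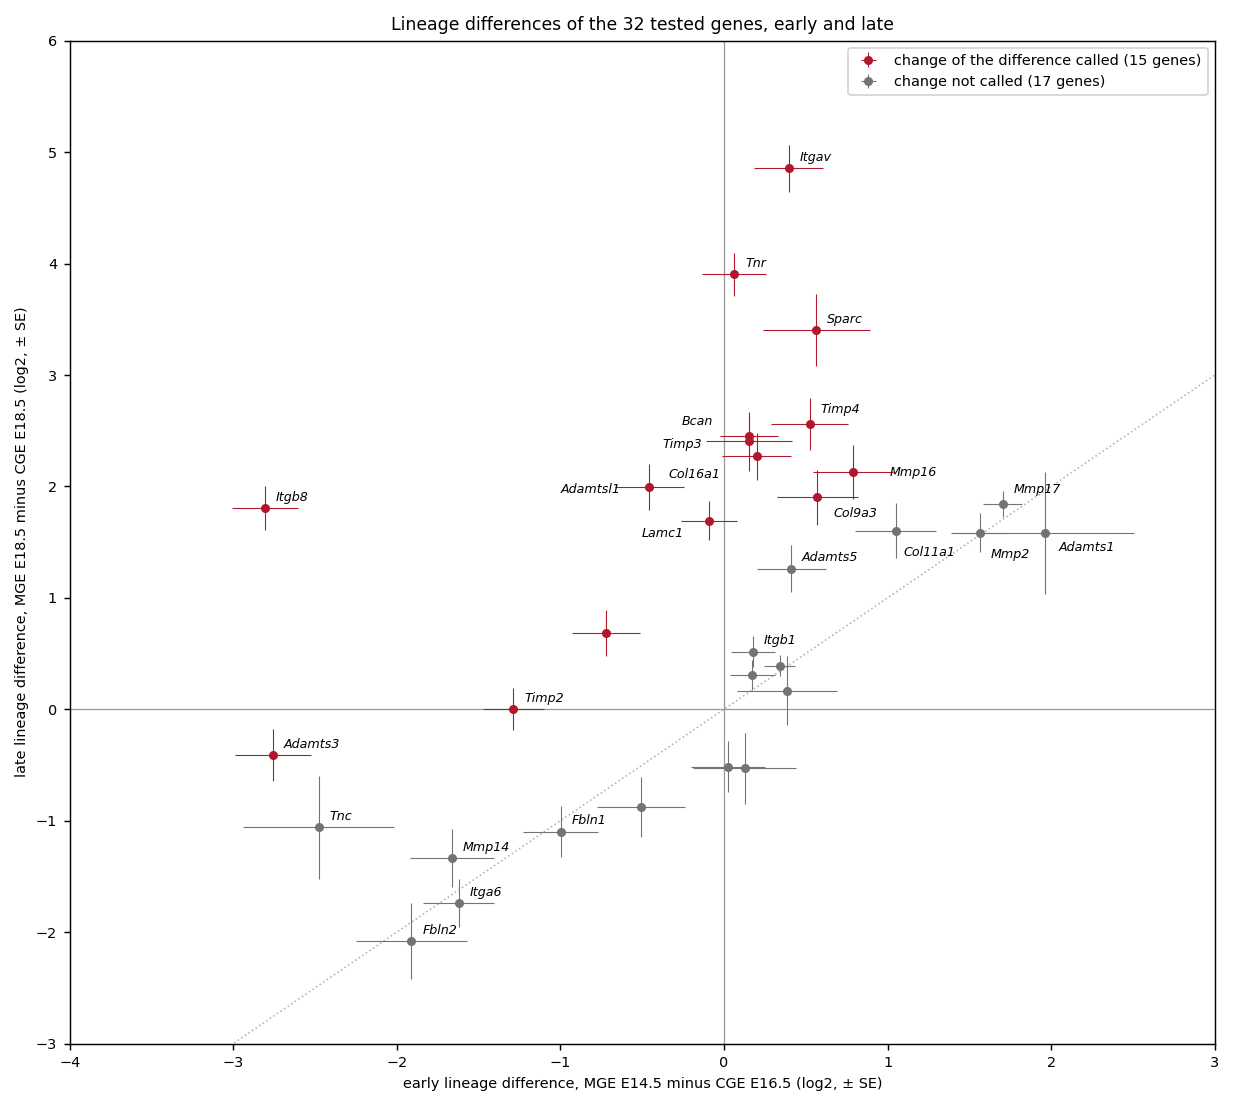
Each point is 1 of the 32 tested genes, placed by its early lineage difference (x axis, MGE E14.5 minus CGE E16.5, log2) and its late one (y axis, MGE E18.5 minus CGE E18.5, log2), with bars of 1 standard error; the dotted line marks equal differences. The 15 genes in red, among them Itgav, Tnr, Sparc and Itgb8, lie above the line, and Fbln1, Fbln2, Itga6, Mmp14, Mmp2 and Mmp17 lie near it.

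Several marker lists for other cell types also differed between the groups. The deposited table held only some of the listed genes. It held 5 of 14 endothelial, 3 of 10 pericyte, 4 of 11 meningeal and 5 of 13 microglia and blood markers. A list of 11 markers of oligodendrocyte precursors, cells that arise in part from the Nkx2-1 lineage and so keep the reporter, had a mean of 10.49 to 11.25 on MGE E18.5 arrays, 6.53 to 6.72 on MGE E14.5 arrays, 5.11 to 5.48 on CGE E18.5 arrays and 4.96 to 5.21 on CGE E16.5 arrays. All 11 were higher in MGE cells in the late comparison and with age. In the early comparison 7 of the 11 were higher in MGE cells and none lower, with a median difference of 1.34. Of all genes tested, 4.16% were higher and 5.9% lower there. Radial glia and astrocyte markers, 10 genes in the table, averaged 8.67 to 9.09 in MGE E18.5 cells, 6.998 to 7.56 in MGE E14.5 cells, 7.39 to 7.81 in CGE E18.5 cells and 7.02 to 7.30 in CGE E16.5 cells, and 6 of 7 tested were higher in MGE cells at E18.5. Of the 10, Slc1a3 had group means of 10.02 and 6.21 in MGE cells at E18.5 and E14.5. In CGE cells it was at 7.29 at E18.5 and 6.31 at E16.5. Hes5 was at 10.39, 7.44, 7.93 and 6.97 in that order, and Vim at 12.60, 11.57, 12.48 and 11.56. Slc1a2 was highest in CGE E16.5 cells, at 9.51, against 9.36 in MGE E18.5 cells. Aqp4 was between 3.59 and 3.79 and Gja1 between 4.39 and 4.82 as group means, near the bottom of the scale, and neither was tested.

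Interneuron markers (9 genes) averaged 10.41 to 10.69 in MGE E18.5 cells, 10.99 to 11.10 in MGE E14.5 cells, 11.67 to 11.78 in CGE E18.5 cells and 11.81 to 11.98 in CGE E16.5 cells. This list holds markers that separate the lineages, Sp8 (group means of 4.54 and 4.31 in MGE cells at E18.5 and E14.5, and 12.02 and 11.91 in CGE cells at E18.5 and E16.5) and Lhx6 (12.62 and 12.91 in MGE cells, 10.65 and 10.77 in CGE cells). Over the other 7 the averages were 10.95 to 11.30 in MGE E18.5 cells and 11.66 to 11.80 in MGE E14.5 cells. In CGE cells they were 11.74 to 11.90 at E18.5 and 11.98 to 12.06 at E16.5. These 7 include Dlx1, whose Venus reporter was used to sort CGE but not MGE cells. Lineage and sort therefore cannot be told apart in them. At E18.5 Dlx1 was at 11.37 in MGE and 12.32 in CGE cells. Slc32a1 was at 11.20 and 11.19, and the rest were lower in MGE cells. Endothelial markers (5 genes) averaged 6.48 to 6.97 in MGE E18.5 cells, 5.74 to 5.85 in MGE E14.5 cells, 5.91 to 6.20 in CGE E18.5 cells and 5.78 to 6.07 in CGE E16.5 cells, and the defining receptor Flt1 had group means of 4.42 to 4.73. The 2 tested were Slc2a1, with group means of 9.34 to 9.80, and Ramp2. Ramp2 was at 7.96 in MGE E18.5 cells, 5.58 in MGE E14.5 cells, 5.53 in CGE E18.5 cells and 5.78 in CGE E16.5 cells. Of these 2, 1 was called higher in MGE cells late and 1 with age in MGE cells. Pericyte markers (3 genes) averaged 5.58 to 5.85 in MGE E18.5 cells, 4.57 to 4.90 in MGE E14.5 cells, 5.17 to 5.70 in CGE E18.5 cells and 5.04 to 5.13 in CGE E16.5 cells, with Acta2 at group means of 4.55 to 4.70. Rgs5, the 1 tested, had group means of 7.54 and 4.94 in MGE cells at E18.5 and E14.5. In CGE cells Rgs5 was at 6.71 at E18.5 and 5.61 at E16.5. It was called higher with age in MGE cells (2.59) and not between the lineages. Microglia and blood markers (5 genes) averaged 5.89 to 6.37 in MGE E18.5 cells, 4.18 to 4.61 in MGE E14.5 cells, 5.85 to 6.86 in CGE E18.5 cells and 4.67 to 5.37 in CGE E16.5 cells, and all 3 that were tested were higher at E18.5 in both lineages.

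Of 4 meningeal fibroblast markers the tested one was Pdgfra, which is also an oligodendrocyte precursor marker, and Ogn had group means of 3.74 to 3.83. Igf2 had a mean of 6.24 in MGE E18.5 cells and of 4.86 to 5.49 in the other groups. Zic1 was highest in CGE E18.5 cells, at 6.38, against 3.92 to 4.87 in the other groups. Cajal-Retzius markers (4 genes) averaged 7.79 to 8.34 in MGE E18.5 cells, 8.71 to 8.98 in MGE E14.5 cells, 6.91 to 7.81 in CGE E18.5 cells and 8.45 to 8.83 in CGE E16.5 cells. Pallial glutamatergic neuron markers (6 genes) averaged 6.65 to 7.21 in MGE E18.5 cells, 6.96 to 7.65 in MGE E14.5 cells, 6.16 to 6.87 in CGE E18.5 cells and 7.05 to 7.49 in CGE E16.5 cells. Of the 3 tested, Neurod6 had the largest difference, -1.41 ± 0.53 in CGE cells with age (adjusted p = 0.117). In sorted bulk samples, a change in the share of a cell type and a change of RNA per cell cannot be told apart. The part of these cell types in the differences below was not tested.

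**Figure D2:**
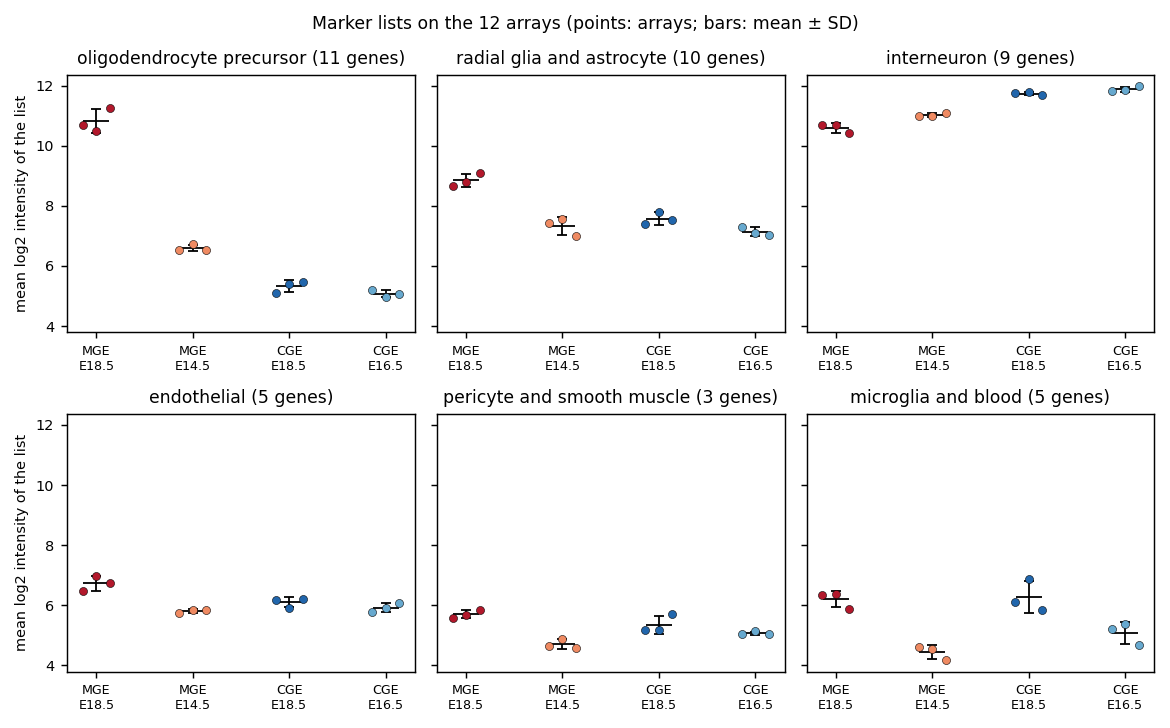
Each panel plots, for the 12 arrays, the mean log2 intensity (y axis) of 1 marker list for each group (x axis). Points are arrays, and bars give the mean and SD of the group. Oligodendrocyte precursor markers reach 10.49 to 11.25 on MGE E18.5 arrays and stay at or below 6.72 on the others, and the interneuron panel includes Sp8 and Lhx6.

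Of the 32 tested genes, Itgav had the largest late and Itgb8 the largest early difference between the lineages. Itgav, the alpha-v subunit that pairs with several beta subunits to bind RGD-containing ligands such as vitronectin and latent TGF-beta, stood at 11.48, 11.13 and 11.79 on the MGE E18.5 arrays and at 6.94, 6.87 and 6.58 on the MGE E14.5 arrays, against 6.25, 6.84 and 6.74 on the CGE E18.5 arrays and 6.64, 6.10 and 6.47 on the CGE E16.5 arrays. The 3 late MGE arrays lay far above the other 9, all of which were under the filter level. Itgav was 4.85 ± 0.21 higher in MGE than in CGE cells at E18.5 (adjusted p = 2.08e-08) and 4.67 ± 0.21 higher in MGE cells at E18.5 than at E14.5 (adjusted p = 5.38e-08). Early it was 0.40 ± 0.21 (adjusted p = 0.301). Its other probe sets gave late differences of 3.64 and 4.01.

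Itgb8, a beta subunit known to pair only with Itgav, had another course. It stood at 9.15, 8.66 and 9.22 on the MGE E18.5 arrays and at 6.08, 5.95 and 5.39 on the MGE E14.5 arrays, against 7.12, 7.01 and 7.48 on the CGE E18.5 arrays and 8.60, 8.62 and 8.64 on the CGE E16.5 arrays. The order of the lineages was thus opposite at the early and the late stage, with no overlap at either. Itgb8 was -2.81 ± 0.20 in the early comparison (adjusted p = 4.29e-06) and 1.81 ± 0.20 in the late one (adjusted p = 4.85e-05). It rose by 3.20 ± 0.20 with age in MGE cells and fell by 1.41 ± 0.20 in CGE cells (adjusted p = 0.00288), and the change of the lineage difference was 4.61 ± 0.28, beside 4.46 ± 0.30 for Itgav.

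Itga6, an alpha subunit of laminin receptors, went the other way at both stages. It stood at 6.24, 6.84 and 6.35 on the MGE E18.5 arrays and 7.09, 6.95 and 6.46 on the MGE E14.5 arrays, against 7.99, 8.17 and 8.49 on the CGE E18.5 arrays and 8.49, 8.70 and 8.18 on the CGE E16.5 arrays. Every MGE array was below the filter level and every CGE array above it. The difference was -1.62 ± 0.22 early (adjusted p = 0.000459) and -1.74 ± 0.22 late (adjusted p = 0.000117), and a second probe set gave -1.61 and -1.54. The age differences of -0.36 ± 0.22 in MGE and -0.24 ± 0.22 in CGE cells were not called.

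Itgb1, the beta subunit shared by most laminin, collagen and fibronectin receptors, lay above the filter level in all groups. It measured 10.14, 10.09 and 10.50 in MGE E18.5 cells, 9.64, 9.62 and 9.63 in MGE E14.5 cells, 9.66, 9.94 and 9.59 in CGE E18.5 cells, and 9.51, 9.52 and 9.32 in CGE E16.5 cells. It was 0.52 ± 0.14 higher in MGE cells at E18.5 (adjusted p = 0.0167) and 0.62 ± 0.14 higher with age in MGE cells (adjusted p = 0.00772), with no call early or in CGE cells with age. The late call was lost without MGE E18.5 replicate 3 or CGE E18.5 replicate 3, and when the groups compared were fitted alone. Of its kept probe sets, 1 did not share the call (0.23). Itgb1bp1, which encodes a cytoplasmic protein that binds the Itgb1 tail, was called in no comparison, its widest difference being 0.43 ± 0.31 in CGE cells with age.

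**Figure D3:**
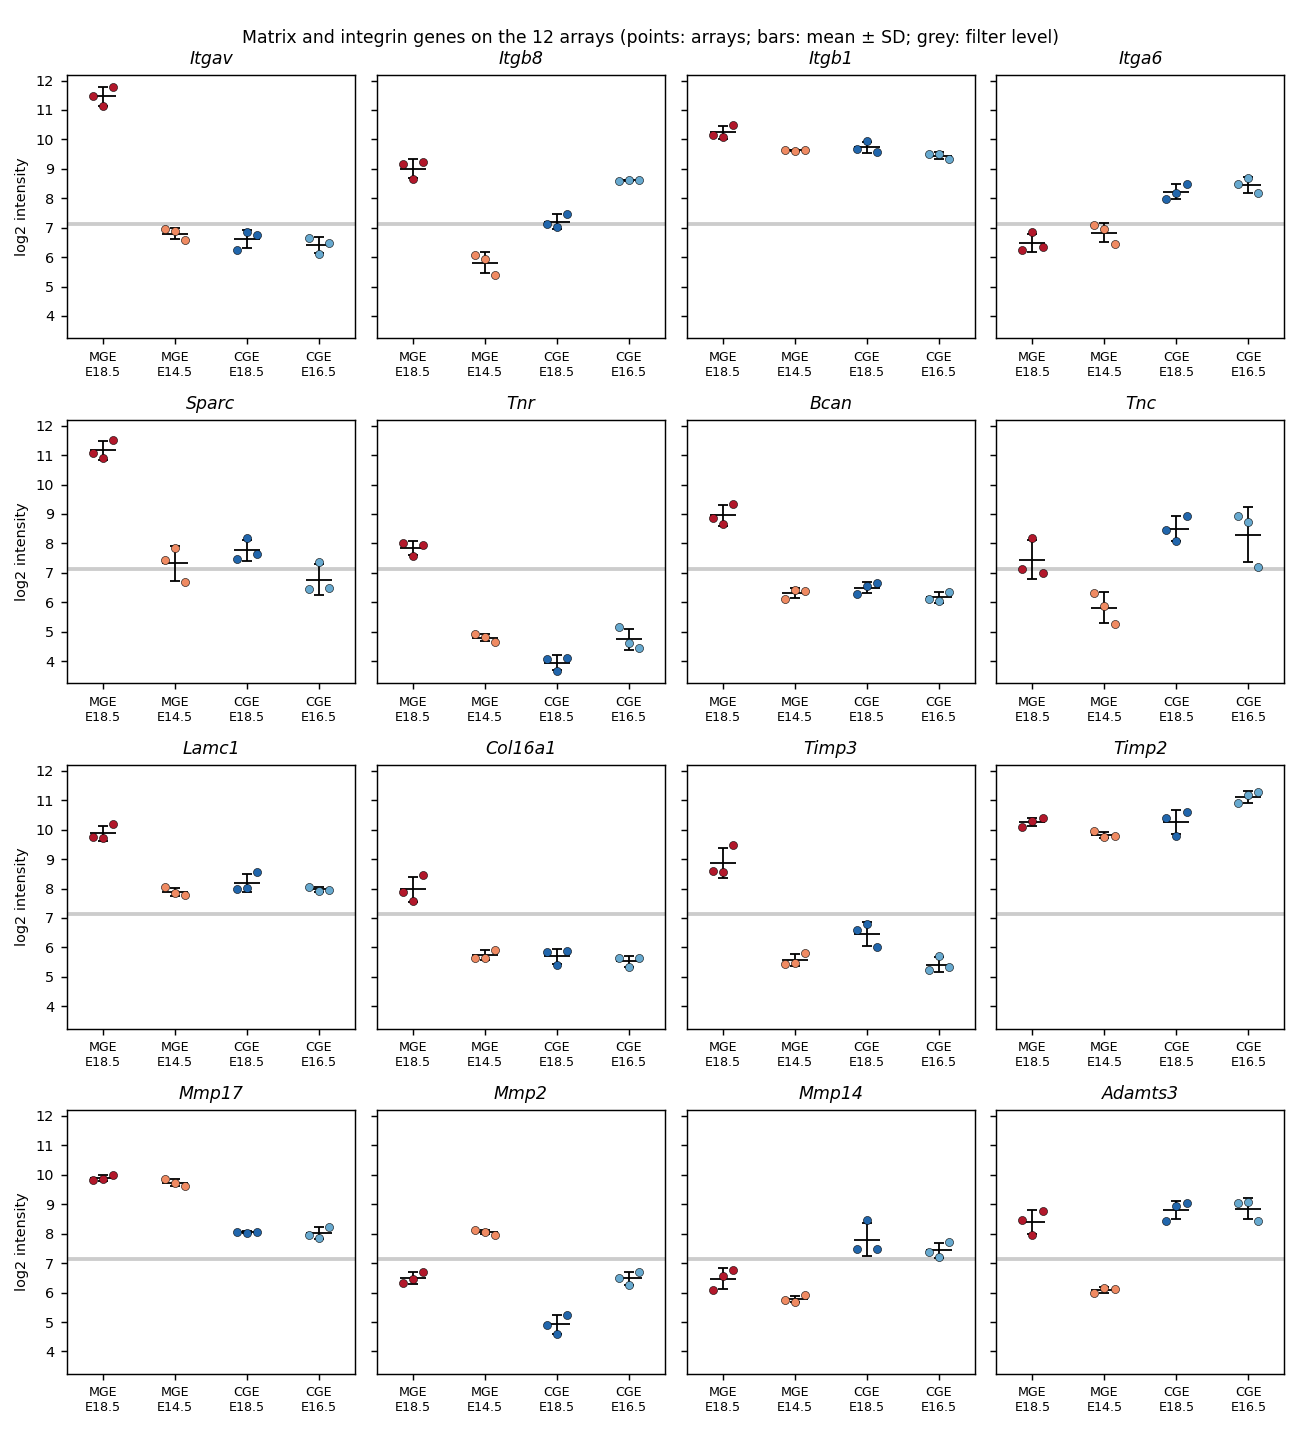
Log2 intensity (y axis) of 16 of the tested genes on each of the 12 arrays, by group (x axis); bars show the mean and SD of 3 arrays and the grey band the filter level. Itgav, Sparc, Tnr, Bcan, Lamc1, Col16a1 and Timp3 stand highest on the MGE E18.5 arrays, Itgb8 changes order between stages, and Itga6 and Mmp14 are higher in CGE cells throughout.

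Ligands and structural proteins of the matrix were led by Sparc and Tnr. Sparc, a secreted collagen-binding glycoprotein, stood at 11.08, 10.91 and 11.52 on the MGE E18.5 arrays and 7.45, 7.85 and 6.68 on the MGE E14.5 arrays, against 7.48, 8.18 and 7.63 on the CGE E18.5 arrays and 6.45, 7.37 and 6.49 on the CGE E16.5 arrays. It was 3.40 ± 0.33 higher in MGE cells at E18.5 (10.6-fold, adjusted p = 1.49e-05) and 3.84 ± 0.33 higher with age in MGE cells. The age difference in CGE cells, 1.00 ± 0.33, had arrays that did not overlap but an adjusted p of 0.073.

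Tnr encodes tenascin-R, a tenascin of the nervous system that links lecticans in perineuronal nets and is known from oligodendrocytes and some interneurons. It stood at 8.01, 7.59 and 7.95 on the MGE E18.5 arrays and 4.91, 4.84 and 4.67 on the MGE E14.5 arrays, against 4.06, 3.65 and 4.12 on the CGE E18.5 arrays and 5.15, 4.62 and 4.45 on the CGE E16.5 arrays. Only the late MGE arrays passed the filter level. The late difference was 3.90 ± 0.20 (adjusted p = 5.85e-08), against 0.06 ± 0.20 early. The CGE E18.5 values lay near the lowest value of the table, 3.23, so the size of the late difference rests on how dim probe sets read. With age Tnr rose by 3.05 ± 0.20 in MGE cells and fell by 0.80 ± 0.20 in CGE cells (adjusted p = 0.0251). The CGE values were all under the filter level, and that call was lost under 5 of 20 alternatives. It was lost without CGE E16.5 replicate 1 or CGE E18.5 replicate 2. Array weights, an intensity trend and a fit of the groups compared alone lost it as well.

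The promoter windows of these 4 genes, Itgav, Itgb8, Tnr and Sparc, are shown because they led the change of the lineage difference. They come from RefSeq (GRCm38.p6), which gave a window of 250 bases before to 50 after the annotated start for 45 of the 64 genes, and are printed in the direction of the gene with CG dinucleotides in capitals. They lie at chr2:83724147-83724446 (+ strand, Itgav), chr12:119238227-119238526 (- strand, Itgb8), chr1:159523519-159523818 (+ strand, Tnr) and chr11:55420031-55420330 (- strand, Sparc).
Itgav: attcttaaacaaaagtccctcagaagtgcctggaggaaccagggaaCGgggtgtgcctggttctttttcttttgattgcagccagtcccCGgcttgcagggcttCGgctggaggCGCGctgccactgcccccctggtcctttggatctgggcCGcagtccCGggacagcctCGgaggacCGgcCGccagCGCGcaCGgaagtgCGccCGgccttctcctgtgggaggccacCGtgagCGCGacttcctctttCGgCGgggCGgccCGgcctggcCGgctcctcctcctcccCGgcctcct
Itgb8: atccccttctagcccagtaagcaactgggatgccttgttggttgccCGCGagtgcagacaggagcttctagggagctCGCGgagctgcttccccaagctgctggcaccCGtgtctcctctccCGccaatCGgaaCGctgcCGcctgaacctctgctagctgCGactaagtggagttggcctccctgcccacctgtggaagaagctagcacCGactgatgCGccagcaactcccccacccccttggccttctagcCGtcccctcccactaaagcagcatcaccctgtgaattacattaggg
Tnr: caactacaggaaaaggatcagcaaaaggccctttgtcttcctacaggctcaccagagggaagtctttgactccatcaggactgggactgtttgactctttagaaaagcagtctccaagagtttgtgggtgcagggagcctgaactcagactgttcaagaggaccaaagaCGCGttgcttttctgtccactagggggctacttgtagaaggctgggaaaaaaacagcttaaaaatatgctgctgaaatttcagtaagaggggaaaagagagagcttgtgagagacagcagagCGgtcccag
Sparc: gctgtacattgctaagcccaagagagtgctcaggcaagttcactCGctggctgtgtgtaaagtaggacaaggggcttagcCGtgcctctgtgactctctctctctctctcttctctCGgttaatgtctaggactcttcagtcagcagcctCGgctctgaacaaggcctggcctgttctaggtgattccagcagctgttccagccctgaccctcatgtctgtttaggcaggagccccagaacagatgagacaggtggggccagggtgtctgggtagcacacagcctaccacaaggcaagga
All 4 genes were higher in MGE cells at E18.5, while their windows differ in base composition. They hold 24 CG dinucleotides in Itgav, 13 in Itgb8, 3 in Tnr and 4 in Sparc, at a GC content of 67.3%, 60.7%, 48.0% and 55.3% in that order. The median was 18 over the 50 windows of genes on the list and 7 over all 32851 windows. The letters GGGCGG, searched on both strands, occur in the Itgav window and in none of the other 3 shown, in 66.0% of the 50 windows and in 35.7% of all windows.

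Tnc and Tnr, the tenascin pair, had unlike patterns. Tnc, a tenascin of the germinal zones and of radial glia, stood at 7.14, 8.20 and 6.99 on the MGE E18.5 arrays and 6.31, 5.89 and 5.26 on the MGE E14.5 arrays, against 8.47, 8.09 and 8.95 on the CGE E18.5 arrays and 8.94, 8.74 and 7.21 on the CGE E16.5 arrays. The CGE arrays were the higher ones at the early stage, with no overlap, while at E18.5 the groups overlapped. Tnc was -2.48 ± 0.46 early (lower in MGE cells, adjusted p = 0.00457) and -1.06 ± 0.46 late (adjusted p = 0.123), and rose with age in MGE cells by 1.62 ± 0.46 (adjusted p = 0.0272), a call lost without MGE E14.5 replicate 2 or 3 or MGE E18.5 replicate 2. The change of its lineage difference was not called (1.42 ± 0.65, adjusted p = 0.228).

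Of the lecticans, the proteoglycans that bind hyaluronan, Bcan (brevican) stood at 8.86, 8.67 and 9.34 on the MGE E18.5 arrays and 6.12, 6.43 and 6.40 on the MGE E14.5 arrays, against 6.30, 6.56 and 6.65 on the CGE E18.5 arrays and 6.11, 6.03 and 6.36 on the CGE E16.5 arrays. It was 2.45 ± 0.18 higher in MGE cells at E18.5 (adjusted p = 1.48e-06) and 2.64 ± 0.18 higher with age in MGE cells. A second probe set gave 4.35 late. Ncan (neurocan) lay above the filter level on all arrays, with means of 13.54 in MGE E18.5 cells, 13.57 in MGE E14.5 cells, 13.15 in CGE E18.5 cells and 13.23 in CGE E16.5 cells. Its differences were small, 0.34 ± 0.09 early (adjusted p = 0.038) and 0.39 ± 0.09 late (adjusted p = 0.0097), and it was not called with age. The early call was lost under 13 of 21 alternatives. The link protein Hapln4, which fixes lecticans to hyaluronan, did not pass the filter.

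Among the laminins only Lamc1, the gamma chain of most laminin trimers, passed the filter. It stood at 9.75, 9.72 and 10.18 on the MGE E18.5 arrays and 8.04, 7.84 and 7.77 on the MGE E14.5 arrays, against 7.99, 8.03 and 8.56 on the CGE E18.5 arrays and 8.06, 7.90 and 7.95 on the CGE E16.5 arrays. The late difference was 1.69 ± 0.17 (adjusted p = 2.34e-05), the MGE age difference 2.00 ± 0.17, and the early one -0.09 ± 0.17. Lama1, Lama4, Lamb1, Lamb2 and Lamb3, the alpha and beta chains in the table, stayed under the filter on all arrays or all but 1. Lama4, an alpha chain of vessel basement membranes, nevertheless measured 6.47, 6.67 and 7.39 on MGE E18.5 arrays and 4.46, 4.69 and 4.83 on CGE E18.5 arrays, and was called without the filter at 2.18 ± 0.21.

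Of the 14 collagens in the table, 6 were called higher and none lower in MGE cells at E18.5 when no filter was set, where 13.1% of all genes were called higher, and 5 were called higher with age in MGE cells, where it was 12.1%. The 6 were Col16a1, Col9a3, Col11a1 and Col4a1, which passed the filter, and Col5a1 and Col9a1, which did not. Col11a1 and Col16a1 passed it through the MGE E18.5 arrays alone. Col16a1, a fibril-associated collagen, stood at 7.88, 7.59 and 8.45 on the MGE E18.5 arrays and 5.63, 5.64 and 5.93 on the MGE E14.5 arrays, against 5.84, 5.40 and 5.86 on the CGE E18.5 arrays and 5.63, 5.32 and 5.65 on the CGE E16.5 arrays. It was 2.27 ± 0.21 higher late (adjusted p = 1.1e-05) and 0.20 ± 0.21 early. Col9a3, a chain of the fibril-associated type IX collagen, was 1.90 ± 0.25 higher late (adjusted p = 0.000155) and 2.22 ± 0.25 higher with age in MGE cells, and Col11a1, a chain of the fibrillar type XI, was higher early (1.05 ± 0.25, adjusted p = 0.0184) and late (1.60 ± 0.25, adjusted p = 0.000626).

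Col11a1 rose with age in both lineages, by 1.55 ± 0.25 in MGE and 1.00 ± 0.25 in CGE cells (adjusted p = 0.0255), and Col9a3 did so by 0.88 ± 0.25 in CGE cells (adjusted p = 0.0407), a call lost under 12 of 21 alternatives. The early call of Col11a1 was lost under 6 of 20 and its CGE age call under 5. Col4a1, a chain of the basement membrane collagen, measured 7.64, 8.26 and 7.75 in MGE E18.5 cells, 6.75, 7.32 and 7.03 in MGE E14.5 cells, 7.24, 6.88 and 7.47 in CGE E18.5 cells and 7.65, 7.96 and 7.65 in CGE E16.5 cells. It was -0.72 ± 0.21 early (adjusted p = 0.0484) and 0.69 ± 0.21 late (adjusted p = 0.0332), both close to the threshold and lost under 13 and 6 of 20 alternatives, and its second probe set, under the filter, gave -0.08 and 0.21. Its partner Col4a2, which shares the trimer and whose gene adjoins it, was below the filter on all arrays, as were Col1a2 and Fn1, the fibronectin gene.

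Both fibulins that passed the filter were lower in MGE cells at both stages. Fbln1, a matrix glycoprotein that binds fibronectin and laminin, stood at 8.22, 8.18 and 8.33 on the MGE E18.5 arrays and 7.20, 7.45 and 7.25 on the MGE E14.5 arrays, against 8.99, 10.004 and 9.03 on the CGE E18.5 arrays and 8.47, 8.07 and 8.35 on the CGE E16.5 arrays. The difference was -0.998 ± 0.23 early (adjusted p = 0.0165) and -1.10 ± 0.23 late (adjusted p = 0.00473). It rose with age in each lineage, by 0.94 ± 0.23 in MGE and 1.04 ± 0.23 in CGE cells. Its early call was lost without MGE E14.5 replicate 1 or 3 or CGE E16.5 replicate 1 or 3. Fbln2 was -1.91 ± 0.34 early (adjusted p = 0.0035) and -2.08 ± 0.34 late (adjusted p = 0.00093). It stood at 5.62, 4.97 and 4.77 in MGE E18.5 cells and 6.89, 7.52 and 7.19 in CGE E18.5 cells. Early it was at 4.37, 4.37 and 4.48 in MGE E14.5 cells and 5.97, 7.23 and 5.75 in CGE E16.5 cells. Only 2 CGE E18.5 arrays and 1 CGE E16.5 array lay above the filter level, so Fbln2 passed through CGE cells alone.

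The proteases differed by lineage in both directions. Mmp17, a membrane-bound metalloproteinase held by a GPI anchor, stood at 9.82, 9.87 and 10.01 on the MGE E18.5 arrays and 9.85, 9.71 and 9.62 on the MGE E14.5 arrays, against 8.07, 8.03 and 8.06 on the CGE E18.5 arrays and 7.96, 7.86 and 8.23 on the CGE E16.5 arrays. Every MGE array lay above every CGE array, whatever the stage. It was 1.70 ± 0.12 higher early (adjusted p = 3.77e-06) and 1.84 ± 0.12 late (3.58-fold, adjusted p = 5.3e-07), and its age differences of 0.17 ± 0.12 in MGE and 0.04 ± 0.12 in CGE cells were not called (95% intervals -0.09 to 0.44 and -0.23 to 0.30).

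Mmp14 and Mmp2 form a known cascade in which the membrane enzyme Mmp14 activates the secreted gelatinase Mmp2, with Timp2 as the bridge. Mmp14 measured 6.07, 6.57 and 6.76 in MGE E18.5 cells, 5.74, 5.69 and 5.91 in MGE E14.5 cells, 7.47, 8.45 and 7.48 in CGE E18.5 cells, and 7.40, 7.22 and 7.71 in CGE E16.5 cells. It was lower in MGE cells, at -1.66 ± 0.26 early (adjusted p = 0.00137) and -1.33 ± 0.26 late (adjusted p = 0.00295). Every MGE array was under the filter level and every CGE array above it, so Mmp14 passed through CGE cells alone. Mmp2 had the opposite order, at 6.32, 6.48 and 6.71 in MGE E18.5 cells, 8.11, 8.05 and 7.97 in MGE E14.5 cells, 4.90, 4.60 and 5.25 in CGE E18.5 cells, and 6.48, 6.27 and 6.70 in CGE E16.5 cells. It was higher in MGE cells by 1.56 ± 0.17 early (adjusted p = 0.00012) and 1.59 ± 0.17 late (adjusted p = 4.3e-05). Every Mmp2 array outside the MGE E14.5 group lay under the filter level.

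On the chosen probe set Mmp2 also fell with age, by 1.54 ± 0.17 in MGE and 1.57 ± 0.17 in CGE cells. The difference between these was 0.02, with a 95% interval of -0.52 to 0.56. Only the MGE E14.5 arrays lay above the filter level, so the sizes rest on how dim probe sets read. The second probe set fell less in CGE than in MGE cells, and the interval in days was shorter in CGE cells. Mmp2 was the only tested gene of the list called lower with age in MGE cells. With array weights Itga6 and Adamts10 were called lower as well (-0.52 and -0.43). Timp2 measured 10.11, 10.31 and 10.38 in MGE E18.5 cells, 9.94, 9.75 and 9.77 in MGE E14.5 cells, 10.39, 9.80 and 10.60 in CGE E18.5 cells, and 10.89, 11.18 and 11.27 in CGE E16.5 cells. The lineages differed early, by -1.29 ± 0.19 (adjusted p = 0.000807), a call that all 6 of its probe sets shared. At E18.5 the difference was 0.0014 with a 95% interval of -0.41 to 0.41. With age Timp2 was lower in CGE cells (-0.85 ± 0.19, adjusted p = 0.0161). That call was lost without CGE E16.5 replicate 3 and when the groups compared were fitted alone.

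Mmp16, a transmembrane metalloproteinase, measured 9.65, 9.65 and 9.67 in MGE E18.5 cells and 7.29, 7.32 and 7.98 in CGE E18.5 cells, a late difference of 2.13 ± 0.24 (adjusted p = 5.83e-05) that all 4 of its probe sets shared. With age it rose by 0.77 ± 0.24 in MGE cells (adjusted p = 0.0424), a call lost under 8 of 21 alternatives. Mmp11 and Mmp24 were called in no comparison, with late differences of -0.53 ± 0.32 and 0.31 ± 0.14. Mmp19 did not pass the filter.

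Adamts3, a procollagen N-propeptidase, stood at 8.45, 7.97 and 8.77 on the MGE E18.5 arrays and 5.99, 6.15 and 6.13 on the MGE E14.5 arrays, against 8.44, 8.94 and 9.03 on the CGE E18.5 arrays and 9.03, 9.08 and 8.43 on the CGE E16.5 arrays. The early MGE arrays alone were low. Adamts3 was -2.76 ± 0.23 early (lower in MGE cells, adjusted p = 1.35e-05), -0.41 ± 0.23 late (adjusted p = 0.23), and rose by 2.30 ± 0.23 with age in MGE cells (adjusted p = 2.64e-05).

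Adamts1, Adamts4 and Adamts5 cleave lecticans. Adamts5 was 1.26 ± 0.21 higher in MGE cells at E18.5 (adjusted p = 0.00107), and its other probe sets gave 2.18 and 3.70 late and were also called early, at 1.48 and 2.45, where the chosen one was 0.41 ± 0.21. Adamts4 was -0.88 ± 0.27 late (adjusted p = 0.0369, lost under 8 of 21 alternatives), and its second probe set was called early instead (-2.03) and not late (-0.43). Adamts1 measured 7.995, 8.16 and 8.05 in MGE E18.5 cells and 5.08, 8.14 and 6.23 in CGE E18.5 cells, so that 1 CGE array matched the MGE level. Its late difference, 1.58 ± 0.55, was not called (adjusted p = 0.0571). Without CGE E18.5 replicate 2 it was 2.41 and called. The early one, 1.96 ± 0.55, was called (adjusted p = 0.0417) but lost under 11 of 20 alternatives. Its error draws on the spread of all 4 groups. The SDs were 0.29 in MGE E14.5, 0.24 in CGE E16.5, 0.08 in MGE E18.5 and 1.54 in CGE E18.5 cells.

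The ADAMTS-like gene Adamtsl1 was 1.99 ± 0.21 higher in MGE cells at E18.5 (adjusted p = 3e-05), rose by 1.43 ± 0.21 with age in MGE cells and fell by 1.02 ± 0.21 in CGE cells. The fall was not seen in its second probe set (0.13). Adamts10 was called in no comparison.

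The inhibitors Timp3 and Timp4 were high in late MGE cells. Timp3, an inhibitor that binds to the matrix, stood at 8.59, 8.55 and 9.47 on the MGE E18.5 arrays and 5.45, 5.46 and 5.80 on the MGE E14.5 arrays, against 6.59, 6.80 and 6.0 on the CGE E18.5 arrays and 5.23, 5.70 and 5.33 on the CGE E16.5 arrays. It was 2.41 ± 0.26 higher in MGE cells at E18.5 (adjusted p = 4.3e-05), and rose with age by 3.30 ± 0.26 in MGE and 1.05 ± 0.26 in CGE cells (adjusted p = 0.0283, lost under 6 of 21 alternatives). Timp4 measured 7.54, 7.25 and 8.32 in MGE E18.5 cells, 5.51, 5.64 and 6.01 in MGE E14.5 cells, 5.15, 5.10 and 5.20 in CGE E18.5 cells, and 4.97, 5.32 and 5.30 in CGE E16.5 cells. It was 2.56 ± 0.23 higher late (adjusted p = 9.66e-06), and a second probe set gave 4.65. Of the 3 TIMP genes in the table, Timp2 was the 1 not called at E18.5.

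**Figure D4:**
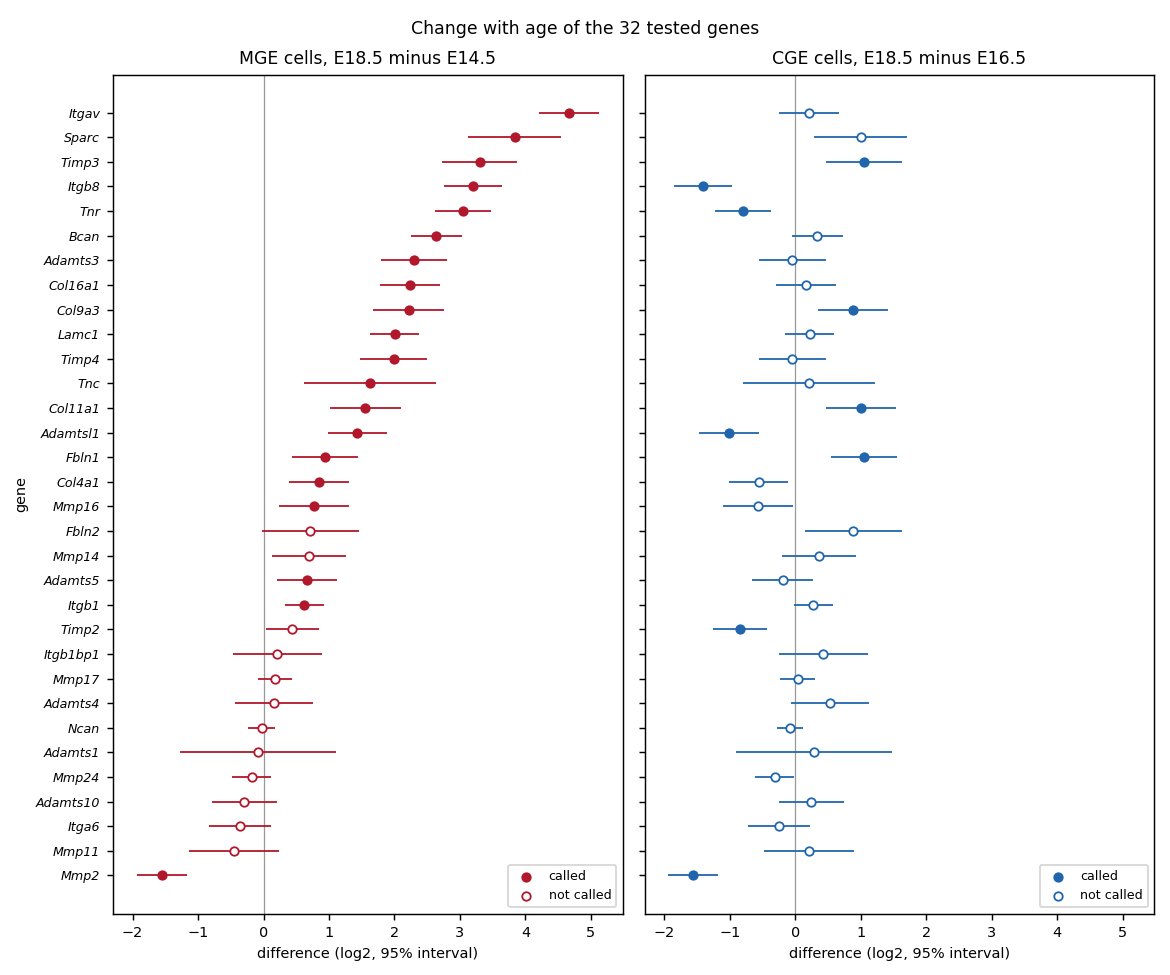
Differences with age (x axis, log2) of the 32 tested genes (y axis) in MGE cells (left, E18.5 minus E14.5) and CGE cells (right, E18.5 minus E16.5), with 95% intervals; filled points were called. In MGE cells 19 genes are higher at E18.5 and Mmp2 is called lower, and in CGE cells 4 are higher and 5 lower.

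Replicate 3 of the MGE E18.5 group was the highest of its group for 14 of the 19 genes higher in MGE cells at E18.5, as for 61.5% of all 1143 genes called higher there. The same array had the highest oligodendrocyte precursor mean (11.25) and the lowest interneuron mean of its group (10.41, or 10.95 without Sp8 and Lhx6). Without it, 17 of the genes were called higher late and 17 with age in MGE cells.

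Of the 32 genes that did not pass the filter, 8 were called higher and none lower in MGE cells at E18.5 when no filter was set, where 13.1% of the 11358 genes were called higher. Sparcl1, a secreted relative of Sparc, measured 7.80, 7.05 and 7.86 in MGE E18.5 cells, 5.51, 5.49 and 5.31 in MGE E14.5 cells, 5.75, 5.72 and 6.30 in CGE E18.5 cells, and 5.56, 5.50 and 5.50 in CGE E16.5 cells (late difference 1.64 ± 0.21). Itga8 and Itga9, alpha subunits that pair with Itgb1 and bind matrix ligands such as nephronectin and tenascin-C, were 2.52 ± 0.38 and 2.24 ± 0.35 higher late. Itgb5, another partner of Itgav, was lower in MGE cells early (-1.11 ± 0.23, adjusted p = 0.0114). Detection calls were not used, so that dim and absent transcripts look alike here.

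**Figure D5:**
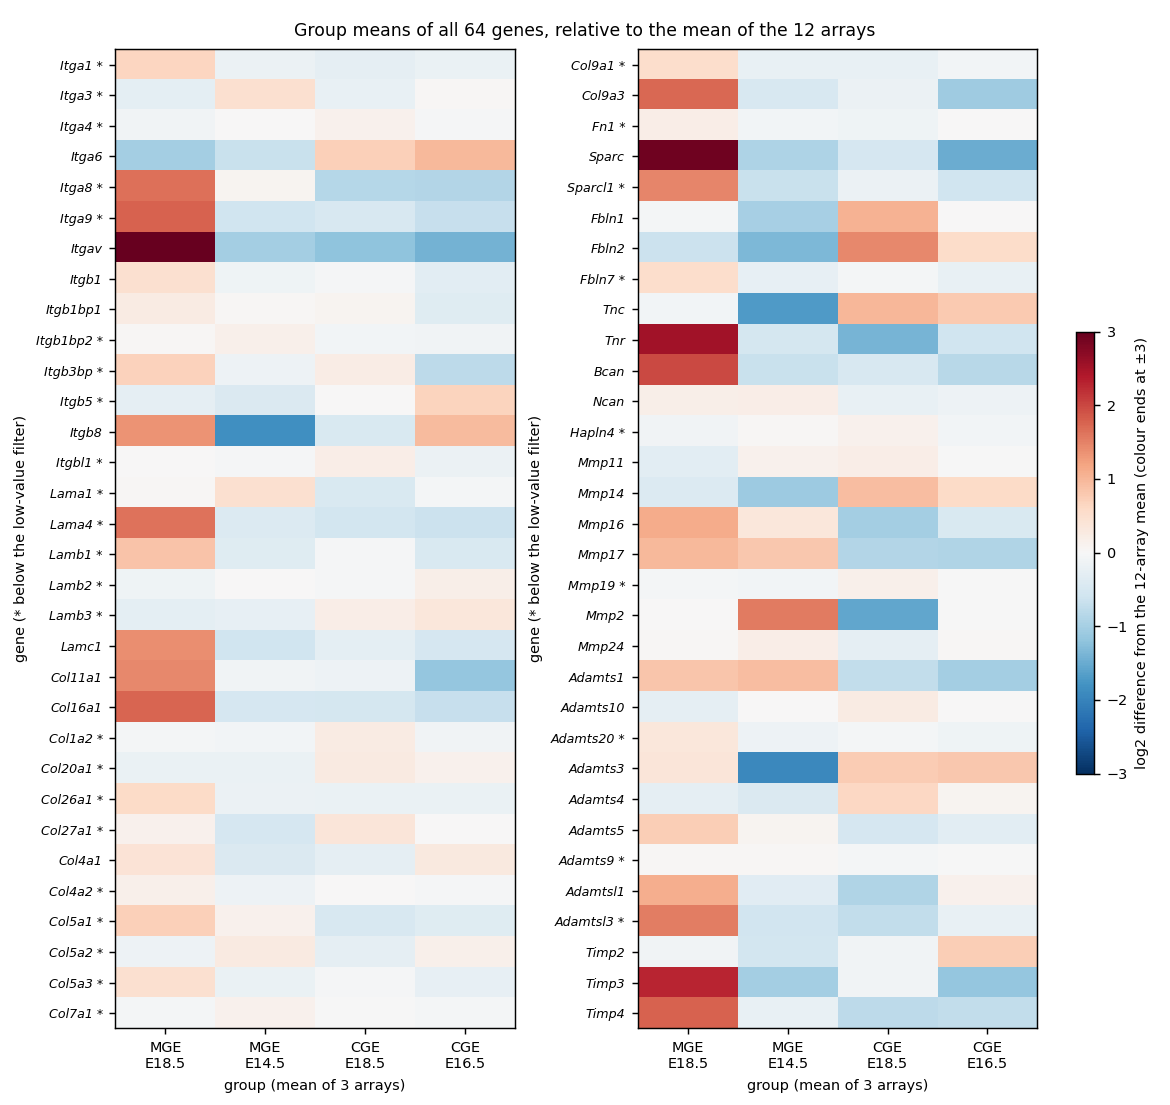
Group means of all 64 genes (rows, ordered by family) in the 4 groups (columns), coloured by the log2 difference from the mean of the gene over the 12 arrays; an asterisk marks the 32 genes below the low-value filter. The MGE E18.5 column holds the deepest reds, led by Itgav, Sparc, Tnr, Timp3 and Bcan.

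Related genes outside the list were described by the same fit. Of 18 tested genes of neural proteoglycans and hyaluronan biology, 10 were higher and 2 lower in MGE cells at E18.5, against 13% and 9.85% of all genes tested, and 11 were higher and 4 lower with age in MGE cells, against 11.4% and 9.77%. Among the 10 higher at E18.5, Cspg4, the NG2 proteoglycan that is itself an oligodendrocyte precursor marker, was 5.47 ± 0.26 higher. Cspg5 was 4.19 ± 0.28 higher, the lectican gene Acan 3.03 ± 0.26 and the syndecan Sdc3 2.80 ± 0.25. The 2 lower at E18.5 are not named here. Reln, the secreted guidance protein of Cajal-Retzius cells and some interneurons, was lower at E18.5 in both lineages, at -2.89 ± 0.39 in MGE and -3.34 ± 0.39 in CGE cells.

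Of 20 tested adaptors and signalling genes of integrins, 4 were higher and 2 lower in MGE cells at E18.5, or 20% and 10%, near the 13% and 9.85% of all genes tested. In the early comparison none was higher and 4 were lower, against 4.16% and 5.9%, and with age in MGE cells 10 were higher and 2 lower, against 11.4% and 9.77%. Lims2 (3.08 ± 0.26), Tns3 (2.78 ± 0.29) and Tln2 (1.46 ± 0.24), which link integrins to actin, were higher in MGE cells late. Parva, a parvin of the same complexes, was lower in MGE cells early (-1.90 ± 0.22) and late (-1.70 ± 0.22). The matrix receptor adaptor Bcar1 was lower at E18.5, at -1.01 ± 0.26 in MGE and -1.07 ± 0.26 in CGE cells.

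Of 10 tested enzymes of collagen and proteoglycan synthesis, 3 were higher and 1 lower in MGE cells at E18.5, against 13% and 9.85% of all genes tested. Among the 3 higher, Loxl3, a lysyl oxidase that cross-links collagen, was 2.88 ± 0.16 higher, and Chst11, a chondroitin sulfotransferase, 2.57 ± 0.19. The 1 lower is not named here. Of 6 tested genes of basement membrane and stromal matrix, 2 were higher and 2 lower in MGE cells early. The shares of all genes tested were 4.16% and 5.9%. Late it was 2 higher and 1 lower, against 13% and 9.85%. Fbn2 (fibrillin-2) was higher in MGE cells early (1.14 ± 0.24) and late (2.72 ± 0.24), as was Thbs1 (thrombospondin-1, 3.29 ± 0.43 and 3.27 ± 0.43). Mfap2, a microfibril protein, was lower at both stages (-0.70 ± 0.16 and -0.71 ± 0.16).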

How the data were processed

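RNA of FACS-sorted cells was amplified (NuGEN Ovation Pico) and hybridised to 12 Affymetrix whole-genome mouse arrays, 3 in each of 4 groups. The authors deposited log2 intensities, background-corrected and normalised with Bioconductor according to the methods; the submitters' processing notes list MAS5, so the exact normalisation is not settled. Deposited values ran from 3.23 to 14.97, with array medians of 7.75 to 7.81. Arrays have no read depth, and their number limits precision; the labels give no scan date or batch.

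The table held 27094 probe sets. Without 34 controls, 22339 had 1 symbol, 571 several and 4150 none in the platform annotation; Entrez identifiers of 22269 matched RefSeq (GRCm38.p6), which changed 0 symbols. Probe sets with 1 symbol were kept (16008) if above the 40th percentile of the deposited values, without controls, on at least 3 arrays. Each gene took its brightest. The fit used limma 3.58.1 (R 4.3.3; 1 mean per group, 8 residual and 3.6 prior degrees of freedom, two-sided, Benjamini-Hochberg over 8795 genes, called under 0.05). The scripts were tested on simulated data.

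The genes with values in the text are those of the list and, for related lists, called members. The list, the related lists and the marker lists were chosen with earlier results of these data known. Alternatives covered the filter, probe set choice, quantile normalisation, array weights, an intensity trend, a replicate block, the groups fitted, and leaving out arrays. MGE E14.5 replicates 1 and 2 were the closest pair (SD of differences 0.231, others 0.376 to 0.518) and were also averaged as 1.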

Additional observations from a re-analysis of the deposited data

Results flagged for a closer look

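Of the 32 tested genes, 15 had a lineage difference that changed between stages by the interaction term (late minus early difference, log2; limma, Benjamini-Hochberg over 8795 genes), all upwards. They were Itgb8 (4.61), Itgav (4.46), Tnr (3.84), Sparc (2.84), Adamtsl1 (2.45), Adamts3 (2.35), Bcan (2.30), Timp3 (2.25), Col16a1 (2.07), Timp4 (2.04), Lamc1 (1.78), Col4a1 (1.41), Mmp16 (1.34), Col9a3 (1.33) and Timp2 (1.29). Of all genes tested, 6.77% changed upwards and 1.88% downwards. Itgav, Tnr, Bcan, Timp3, Col16a1 and Timp4 passed the filter through MGE E18.5 cells alone, the group whose height raises this term. Without the filter 20 of the 64 genes were called, all upwards (31.2%). Of the 11358 genes, 6.85% were then called upwards and 1.84% downwards. In Itgb8 and Col4a1 the sign of the lineage difference turned, with a call at each stage. The Col4a1 calls were close to the threshold (limma, adjusted p = 0.0484 early and 0.0332 late). They were lost under 13 and 6 of 20 alternatives, while those of Itgb8 were kept in all. In Adamts3 and Timp2 the early difference was called and the late one was not. The calls of Mmp16 and Col9a3 were lost under 10 and 9 of 20 alternatives. The early difference set MGE cells of E14.5 against CGE cells of E16.5, so embryonic day and lineage cannot be told apart in this term. Groups of 3 arrays are too small to look for single outlying arrays.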

How the results depend on the processing

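No result reversed under any alternative run. Of 82 called differences of the listed genes, 59 kept their call under every alternative run for them and 23 lost it under at least 1; the 60th percentile filter left 51 of the 82 to test, 36 of them among the 59, and the fit of the groups compared gives no change of the lineage difference. With a 60th percentile filter, the early comparison had 3 higher, the late one 12 higher and 3 lower, MGE cells with age 0 lower, and CGE cells with age 2 lower; fewer genes were tested. With no filter, MGE cells with age had 2 lower. Array weights gave 3 lower with age in MGE cells and 1 higher in CGE cells, and over all genes 1814 calls early, 3490 in MGE and 543 in CGE cells with age. Averaging MGE E14.5 replicates 1 and 2 left 2 higher early, and over all genes 546 calls early and 1210 in MGE cells with age. Fitting the groups compared alone gave 1 higher and 3 lower in CGE cells with age, and 175 calls over all genes. Leaving out 1 array in turn gave 2 to 5 higher early, with 2 or 3 without MGE E14.5 replicate 1, 2 or 3, CGE E16.5 replicate 2 or 3, or MGE E18.5 replicate 1, 2 or 3 (532 to 1004 over all genes), 1168 to 2012 over all genes in MGE cells with age, and 0 to 5 higher, 3 to 5 lower and 374 to 1207 over all genes in CGE cells with age. The lowest CGE counts came without CGE E16.5 replicate 3 (0 higher, 3 lower, 374 genes); without CGE E18.5 replicate 2 there were 1 higher and 470 genes, and without CGE E18.5 replicate 3 there were 2 higher. Early, there were 532 calls without MGE E14.5 replicate 1 and 561 without replicate 2, and 1168 calls in MGE cells with age without MGE E18.5 replicate 3. The calls lost most often were those of Col4a1 and Ncan early and Adamts5 in MGE cells with age (13 alternatives each, adjusted p up to 0.195, 0.177 and 0.156), Col9a3 in CGE cells with age (12, up to 0.142) and Adamts1 early (11, up to 0.136). Calls of Col11a1 and Fbln1 early, Adamts4, Col4a1, Itgb1 and Ncan late, Col4a1, Fbln1, Mmp16 and Tnc in MGE cells with age, Adamtsl1, Col11a1, Fbln1, Timp2, Timp3 and Tnr in CGE cells with age, and the changes of Col9a3 and Mmp16 were lost under at least 1 alternative. The cause of these changes was not tested. Over all groups, replicate numbers showed no clear pairing of arrays. Correlations of deviations were -0.10 to 0.25 for same-numbered arrays (median 0.02) and -0.23 to 0.23 for the others (median -0.01). Between MGE E14.5 and CGE E16.5, same-numbered arrays gave 0.08, 0.25 and 0.21 and the others -0.23 to 0.08, so pairing there is not settled. With a replicate block, 4 were higher and 8 lower early, and 20 and 5 late. With age it was 18 and 1 in MGE cells and 4 and 5 in CGE cells, and the lineage difference changed for 15. Dim genes have compressed differences, which limits what can be said of the 32 below the filter.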

Other observations

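Probe sets of a gene did not always share a call. The chosen probe set of Adamts4 was called late (-0.88) and its other one early (-2.03), and the other Adamts5 probe sets were called at both stages (1.48 and 2.45 early, 2.18 and 3.70 late). The second Mmp2 probe set, under the filter, also fell with age in both lineages, by 1.52 in MGE and 0.87 in CGE cells. It did not share the near-equal falls of the chosen one. Timp3 had 3 more probe sets under the filter, all called higher in MGE cells at E18.5, at 1.13, 1.74 and 1.27.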
